A study of Mus musculus with 27 samples.

Results

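The CD105- CD200+ cells (P1) and the CD105+ cells (P3) of bone marrow were compared over all genes, in 6 of the 27 RNA-seq libraries of the series. These were the 3 P1 and the 3 P3 libraries of this tissue, chosen by their sorting labels and by no measured value. The cells were tdTomato+ and CD45-, and came from the flushed marrow of femur and tibia of Prx1-CreER/Ai14/Rag1 mice of both sexes aged 8 to 12 weeks, 3 days after the last injection of tamoxifen. All groups shared this genotype and the tamoxifen. In these mice CreER is driven by the Prx1 promoter and switches on tdTomato for good, so that the progeny of a labelled cell also carries the reporter, and the Rag1 mutation removes mature B and T cells. CD105, the protein of Eng, is a coreceptor for TGF-β, and CD200, the protein of Cd200, is a membrane glycoprotein; P3 was sorted on CD105 alone. Each group had cells of 3 mice. Samples were taken from the same animals, and which animal gave which library is not stated, so the p-values below measure the spread between libraries. In periosteum and muscle, P1 and P3 were sorted in the same way (3 libraries each), and these are used to ask where bone marrow differed.

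Bone marrow holds several lineages beside blood. Osteoblasts lay down type I collagen and then mineralize it, under the transcription factors Runx2 and Sp7 (osterix). Reticular stromal cells surround the sinusoids and feed blood precursors with Cxcl12 and Kitl, while sinusoidal endothelium lines the vessels. Erythroblasts, which lose CD45 as they mature, build hemoglobin under Gata1 and Klf1 and divide several times before they shed their nucleus.

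P1 and P3 differed in a large part of the transcriptome. Of 13414 genes tested, 1676 were higher in P1 and 1449 were higher in P3, which were 12.5% and 10.8% of the genes tested. These differentially expressed genes (DEGs) passed limma's test at 0.05 after Benjamini-Hochberg adjustment over all genes tested, and differed by more than 1.5 on the log2 scale in either direction. Fold changes are of P1 against P3 on the scale log2(normalized count + 1), which understates the change of low genes. The libraries of P1 and P3 did not overlap in 3106 of the 3125 DEGs, and in 6268 of all genes tested (46.7%). Over all genes tested the fold change had a median of 0.06 on the log2 scale. After the libraries were rescaled to 1 total, 752 genes were higher in P1 and 3571 higher in P3, and the median moved to -0.90. Quantile normalization gave 1609 and 1518 genes.

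**Figure D1:**
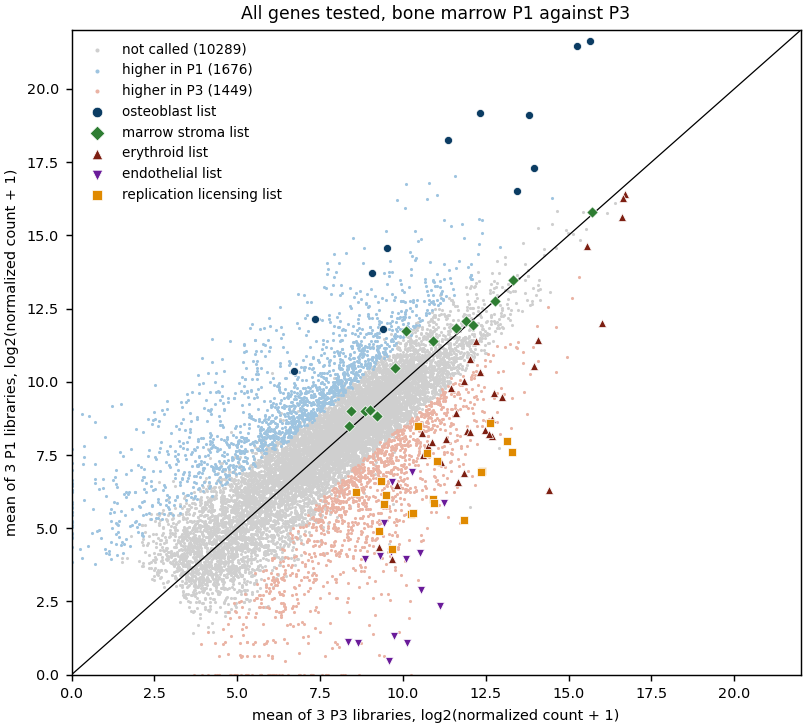
Mean of 3 P1 libraries (vertical axis) against mean of 3 P3 libraries (horizontal axis) of bone marrow for the 13414 genes tested, both as log2(normalized count + 1), with the line of equal level. The 12 osteoblast genes lie above the line, the 14 stroma genes lie along it, and the erythroid, endothelial and replication licensing genes lie below it.

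The libraries themselves also differed. The summed normalized counts were 16782647 to 22076876 in P1 and 8639660 to 10311876 in P3, while fewer genes had a value above 0 in P1 (15331 to 15937) than in P3 (16802 to 17448). The 2 chains of type I collagen alone took 26.5% to 39.3% of the sum of a P1 library and 0.385% to 1.59% of a P3 library. Globin transcripts took 0.719%, 0.527% and 2.89% in P1 and 2.99% to 4.28% in P3. Pearson's r between libraries, across genes, was 0.883 to 0.895 within P1, 0.846 to 0.904 within P3 and 0.60 to 0.726 between them. P3 replicate 1 stood apart from the other P3 libraries, with more stromal and less erythroid transcript, and P1 replicate 3 from the other P1 libraries, with more globin. All 4 Y-linked genes of the list were above 0 in all 6 libraries and none differed.

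Eng followed the sorting labels, and Cd200 was higher in P1. Eng (chromosome 2, 32646595 to 32682669 in GRCm38) was listed at 111, 129 and 5.18 in P1 and at 1740, 774 and 1072 in P3, with no overlap between the groups. Its log2 fold change was -4.66 ± 1.05 (SE; limma adjusted p = 0.0105). Cd200 (chromosome 16, 45382135 to 45409053) was listed at 6346, 7515 and 6315 in P1 and at 905, 473 and 451 in P3, a log2 fold change of 3.53 ± 0.31 (SE; limma adjusted p = 0.000199). Both genes code for proteins used in the sort. P1 and P3 were sorted on opposite levels of CD105, so the difference of Eng checks the labels and is no further result. P1 was sorted as CD200+ but P3 on CD105 alone, so the labels set no level of Cd200 in P3. Ptprc, which codes for CD45, was low in all libraries and overlapped, at 61.8 to 252 in P1 and 66.5 to 322 in P3.

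Prrx1, the gene whose promoter labels these cells, was listed at 2413, 1675 and 1819 in P1 and at 725, 132 and 148 in P3. P1 was higher (log2 fold change 3.0 ± 0.59 SE, limma adjusted p = 0.00608), and the highest P3 library was replicate 1. An entry of the table named as a transgene, with no further description, had the values 24200, 47050 and 32777 in P1 and 7779, 4005 and 4187 in P3, so it too was higher in P1 (log2 fold change 2.72 ± 0.39 SE, limma adjusted p = 0.00132). This entry was chosen after its values were seen. In bulk libraries such as these, fewer cells of a type and less RNA per cell cannot be told apart, here and in all the results that follow.

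**Figure D2:**
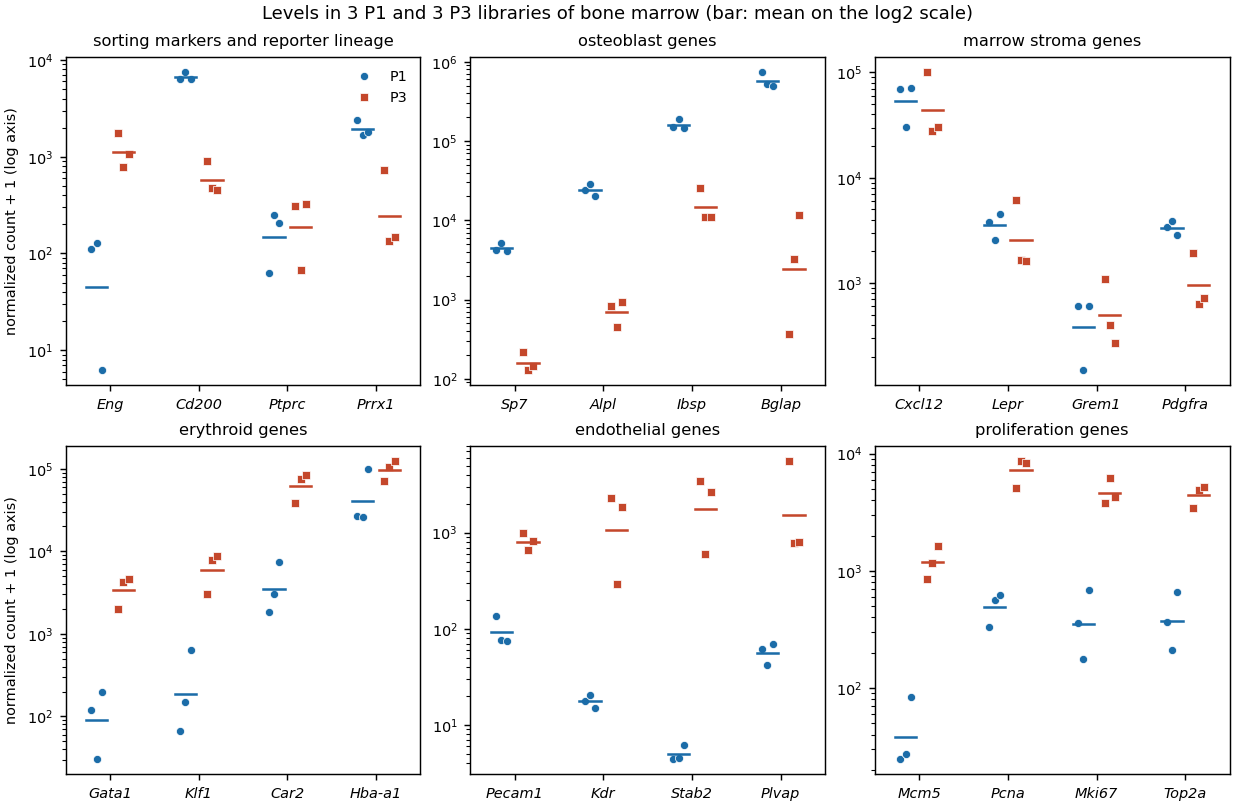
Normalized count + 1 (log axis) of 24 genes in the 3 P1 (circles) and 3 P3 (squares) libraries of bone marrow, with the mean of the log2 values as a bar. The osteoblast genes lie higher in all P1 libraries, the stroma genes Cxcl12, Lepr and Grem1 overlap, and the endothelial and proliferation genes lie higher in all P3 libraries; among the erythroid genes Hba-a1 overlaps.

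The genes of the osteoblast were higher in P1 throughout. All 12 members of the osteoblast marker list were DEGs higher in P1 with no overlap between the libraries, and their median log2 fold change was 4.95. Summed over the list, the level was 6007102 to 10428389 in P1 and 99241 to 223059 in P3. Col1a1, which codes for the α1 chain of type I collagen, was listed at 2570531, 4087530 and 2095399 in P1 and at 9217, 29141 and 77698 in P3 (log2 fold change 6.67 ± 0.99 SE, limma adjusted p = 0.00155). Bglap codes for osteocalcin, the late matrix protein of osteoblasts, and had 742558, 521555 and 498392 in P1 and 365, 3256 and 11632 in P3. Its P3 libraries spread over more than an order of magnitude, with the lowest in replicate 1, and its log2 fold change was 7.91 ± 1.06 (SE; limma adjusted p = 0.000996). Bglap and its neighbour Bglap2 are nearly identical copies, so that the split of reads between them is uncertain; both were higher in P1. Sp7 had the smallest SE of the list, with libraries at 4222, 5190 and 4059 in P1 and 215, 127 and 146 in P3 (log2 fold change 4.81 ± 0.28 SE, limma adjusted p = 4.7e-05). Runx2 was listed at 3110, 3061 and 4454 in P1 and at 1636, 205 and 174 in P3 (log2 fold change 3.16 ± 0.75 SE, limma adjusted p = 0.0131). The first P3 library was much nearer to P1 than the others, and Runx2 was no longer called without P3 replicate 3 or after rescaling.

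Further steps of bone formation moved with these markers. Among 13 osteoblast transcription factors tested, 9 were higher in P1 and none in P3 (median log2 fold change 3.69). Beside Runx2 and Sp7 these included Cbfb, the partner of Runx proteins, Dlx3, Dlx5 and Tcf7, whereas Atf4 differed by less than the fold threshold (log2 fold change 0.71) and Dlx6, Msx1 and Lef1 did not pass the test. Of 21 bone matrix proteins 18 were higher in P1 (median 5.31), among them Sparc (osteonectin), at 566055 ± 42695 (SD, n = 3) in P1 and 14398 ± 2706 in P3, and Ibsp (bone sialoprotein), at 162215 ± 23027 in P1 and 15883 ± 8567 in P3. The exceptions were Mgp, Ogn and Fbln1, which overlapped. Postn (periostin) was higher in P1 as well (log2 fold change 3.87 ± 0.90 SE, limma adjusted p = 0.0124), with 30.9 in P3 replicate 2 against 440 and 384 in the other P3 libraries.

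The machinery that folds, crosslinks and exports collagen followed its substrate. Of 23 genes 20 were higher in P1 and none in P3 (median 3.72, 15 of 23 after rescaling). They covered the prolyl hydroxylases P4ha1 and P4ha2, the lysyl hydroxylases Plod1, Plod2 and Plod3, the collagen chaperone Serpinh1, the crosslinking enzyme Lox and the secretory regulators Creb3l1, Sec24d and Kdelr3. P4hb and Ppib, which every secretory cell uses, had log2 fold changes of 2.41 and 1.67, and neither was called after rescaling. For mineralization, 8 of 12 genes were higher in P1. Alpl, the phosphatase that frees phosphate at the mineral front, was listed at 23891, 28847 and 20274 in P1 and at 828, 447 and 934 in P3 (log2 fold change 5.10 ± 0.33 SE, limma adjusted p = 6.83e-05). Smpd3 and Phospho1, which act in matrix vesicles, had log2 fold changes of 6.28 and 6.30. One member went the other way: Slc20a1, a phosphate importer found in many cells, was higher in P3 (-3.55 ± 0.37 SE, limma adjusted p = 0.000343). Of the osteocyte genes, Dmp1, Phex, Mepe and Pdpn (listed under a pair of identical entries) were all higher in P1 and overlapped in none, but Sost, which marks mature osteocytes, was listed at 0 in all 6 libraries and Fgf23 did not reach a value of 10 in 3 of the 6 libraries, the filter for a test.

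Part of the cartilage list was also higher in P1. Of 7 members tested, Col2a1, Sox9, Col9a1 and Hapln1 were DEGs. Col2a1 codes for type II collagen and was listed at 143665, 171864 and 89106 in P1 and at 775, 403 and 7865 in P3 (log2 fold change 6.59 ± 0.94 SE, limma adjusted p = 0.00132). Sox9, the master regulator of cartilage, was listed at 125 to 152 in P1 and 7.69 to 38.7 in P3. Acan and Matn1, which define cartilage, were below the filter, and Col10a1, of hypertrophic cartilage, overlapped, at 15.4 to 183 in P1 and 7.67 to 1315 in P3.

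The stromal genes for which marrow Prx1 cells are known did not separate P1 from P3. Cxcl12 was listed at 70149, 30282 and 71126 in P1 and at 101060, 27731 and 30573 in P3 (log2 fold change 0.27 ± 0.63 SE, limma adjusted p = 0.772). Lepr, the leptin receptor, had 3821, 2565 and 4567 in P1 and 6112, 1651 and 1634 in P3 (0.48 ± 0.51 SE, adjusted p = 0.51). Grem1, a BMP antagonist, was listed at 606, 147 and 608 in P1 and at 1101, 403 and 270 in P3. In all 3 genes the highest library of the 6 was P3 replicate 1, and the groups overlapped. Of the 14 stromal genes Pdgfra was the only DEG, higher in P1 at 3437, 3883 and 2840 against 1927, 626 and 719 (log2 fold change 1.82 ± 0.42 SE, limma adjusted p = 0.0115), and it was not called without P3 replicate 3 or after rescaling. The median of the list was 0.31, and its summed level was 53743 to 122102 in P1 and 46501 to 168370 in P3. Without P3 replicate 1, 4 of the 14 genes were higher in P1 and the median was 0.93. After rescaling none was called and the median was -0.66, against -0.90 over all genes tested, so its sign depended on the scaling. A miss of the threshold does not show that levels were equal: with 3 libraries a group, the SE of the Cxcl12 fold change alone was 0.63.

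Factors that marrow stroma offers to blood cells form a list that shares Cxcl12, Kitl, Il7, Angpt1 and Vcam1 with the stromal list, so its counts are not separate from those above. Of 10 tested, Tnfrsf11b (osteoprotegerin, the decoy receptor that holds back osteoclasts) was the only DEG, with 370, 580 and 135 in P1 against 65.7, 0 and 32.9 in P3, and 9 were not called, among them Kitl, Csf1, Vcam1 and Tnfsf11 (RANKL). The call of Tnfrsf11b was lost without P3 replicate 3 and without any one of the P1 libraries, after rescaling, with a pseudocount of 0.1, without the mean-variance trend of limma and with 27 libraries in the fit. Without P3 replicate 1, 3 of the 10 factors were higher in P1. Ctsk, a protease of osteoclasts that also marks periosteal progenitors, was higher in P1 (4228, 6101 and 3621 against 919, 271 and 323; log2 fold change 3.39 ± 0.46 SE, limma adjusted p = 0.00101). Acp5, another osteoclast gene, went the other way (-3.16 ± 0.36 SE, adjusted p = 0.000502). Ly6a, which codes for Sca-1, a marker of mesenchymal and blood stem cells that endothelium also carries, was near the floor in P1 at 27.6, 19.9 and 21.8, and higher in P3 at 854, 372 and 364 (-4.35 ± 0.51 SE, adjusted p = 0.000564).

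The red cell programme was higher in P3. Of 33 erythroid genes tested 27 were higher in P3 and none in P1, with a median log2 fold change of -3.51. Gata1, the master regulator of erythropoiesis, was listed at 120, 29.4 and 199 in P1 and at 2022, 4290 and 4644 in P3 (log2 fold change -5.25 ± 0.66 SE, limma adjusted p = 0.00072). Klf1 had 66.0, 147 and 644 in P1 and 3065, 7831 and 8827 in P3 (-5.01 ± 0.76 SE, adjusted p = 0.00175). In both genes the highest P1 library was replicate 3 and the lowest P3 library was replicate 1. The largest fold change of the list was that of Car1, the carbonic anhydrase of erythroid cells, at 64.7, 54.9 and 113 against 9931, 29523 and 26360 (-8.05 ± 0.45 SE, adjusted p = 4.7e-05). Members called included the erythropoietin receptor Epor, the transferrin receptor Tfrc, the heme enzymes Urod, Cpox and Ppox, and the membrane skeleton genes Sptb, Ank1 and Epb42.

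The globins, by contrast, were not called. Hba-a1, of α-globin, had 26794, 25891 and 99675 in P1 and 70779, 105551 and 125663 in P3, an overlap made by P1 replicate 3 (log2 fold change -1.25 ± 0.63 SE, limma adjusted p = 0.167). Hba-a2, Hbb-bs and Hbb-bt behaved alike (-0.59 to -1.31), and the near-identical globin copies cannot be told apart with certainty. Alas2, the first heme enzyme of red cells, was not called (-1.03), and Fech, the last one, passed the adjusted p but not the fold threshold (-1.24). Without P1 replicate 3, Hba-a1 and Hbb-bt were called and 30 of the 33 genes were higher in P3, and after rescaling it was 31. The summed level of the list was 131702 to 522120 in P1 and 386872 to 711882 in P3, with the highest P1 library above the lowest P3 library.

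Endothelial genes gave the lowest median of all lists. All 16 genes tested were higher in P3 with no overlap, at a median log2 fold change of -6.35, while Sox17 and Erg were below the filter. Stab2, a scavenger receptor of sinusoidal endothelium, was listed at 3.40, 3.54 and 5.15 in P1 and at 3408, 600 and 2632 in P3 (-8.46 ± 0.70 SE, limma adjusted p = 0.000156). Kdr and Flt4, receptors for vascular endothelial growth factors, had 14.0 to 19.5 and 0 to 19.1 in P1 against 291 to 2276 and 303 to 2133 in P3. Cldn5, a tight junction protein of endothelium, was listed at 0, 0 and 3.39 against 1809, 335 and 1230, and Emcn at 0, 0 and 1.16 against 1366, 321 and 587. P3 replicate 2 was the lowest P3 library for all these genes. Pecam1 had the smallest fold change of the list, at 136, 75.7 and 74.3 against 985, 655 and 815 (-3.13 ± 0.37 SE, adjusted p = 0.000607). Summed over the list, the level was 319 to 458 in P1 and 6194 to 27425 in P3. Eng is itself a gene of endothelium and of early erythroblasts, and P3 was sorted on its protein.

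**Figure D3:**
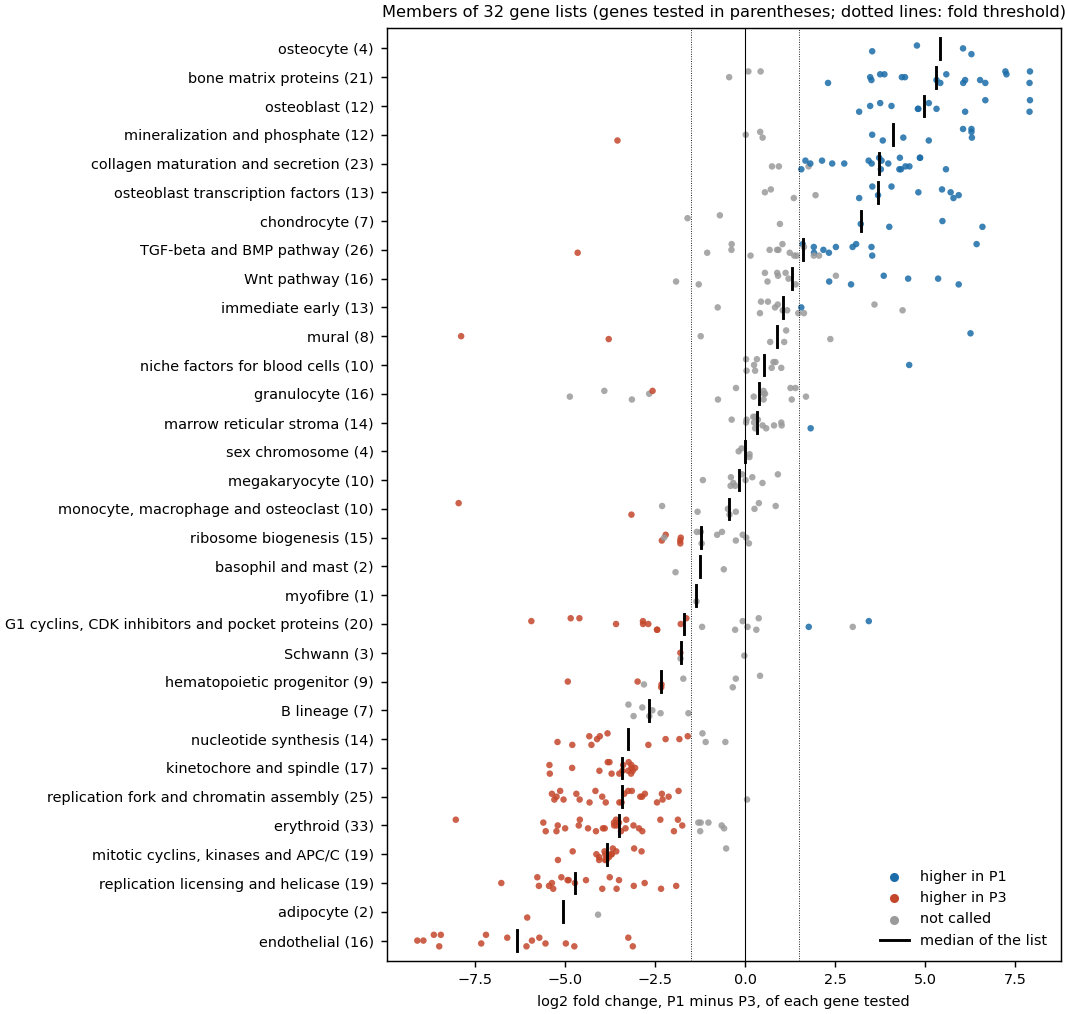
Log2 fold change (P1 minus P3, horizontal axis) of each gene tested in 32 lists, 1 point per gene, with the median of each list as a black bar and dotted lines at the fold threshold of 1.5; blue points are DEGs higher in P1, red points DEGs higher in P3 and grey points are not called. The bone lists lie to the right, with 12 of 12 osteoblast genes called, and the endothelial, cell cycle and erythroid lists lie to the left.

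Genes of the dividing cell were higher in P3 at every step from licensing to mitosis. All 19 genes of replication licensing and of the helicase were higher in P3 with no overlap, at a median log2 fold change of -4.73. Mcm6, a subunit of the helicase, was listed at 117, 133 and 337 in P1 and at 6681, 10356 and 12808 in P3 (-5.78 ± 0.43 SE, limma adjusted p = 0.000111). Mcm5 had 23.8, 26.6 and 82.2 against 853, 1174 and 1634 (-4.94 ± 0.53 SE, adjusted p = 0.000396), and the loading factor Cdc6 had the largest change of the list (-6.78). At the fork, 24 of 25 genes were higher in P3 (median -3.44), the exception being Rfc1. Pcna, the clamp that holds the polymerase, was listed at 331, 565 and 620 in P1 and at 5098, 8718 and 8351 in P3 (-3.88 ± 0.33 SE, adjusted p = 0.000179). Of 14 genes of nucleotide synthesis 11 were higher in P3, led by Rrm2, a subunit of ribonucleotide reductase (-5.22), while Cad, Gart and Atic were not called.

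The mitotic genes behaved alike. Of 19 mitotic cyclins, kinases and their partners 18 were higher in P3 (median -3.85), all but Pttg1, and so were all 17 genes of the kinetochore and spindle (median -3.41). Mki67, which codes for the proliferation antigen Ki67, had 361, 177 and 682 in P1 and 3781, 6132 and 4241 in P3 (-3.71 ± 0.46 SE, limma adjusted p = 0.000699). Top2a was listed at 364, 211 and 652 against 3423, 4902 and 5217 (-3.59 ± 0.41 SE, adjusted p = 0.000492). As with the erythroid genes, the highest P1 library for both was replicate 3. The P1 and P3 libraries did not overlap in either gene. Among 20 G1 cyclins, inhibitors and pocket proteins, 11 were higher in P3 and 2 in P1. Those higher in P3 included Ccne1 (-5.95), Ccne2, Cdk2, Cdk6, E2f1, E2f8 and the D cyclin Ccnd3 (2206, 2347 and 2377 in P1 against 10353, 14594 and 22179 in P3). Higher in P1 were Ccnd2 (1.76 ± 0.24 SE, adjusted p = 0.0011; not called after rescaling) and Cdkn1a, which codes for the cell cycle inhibitor p21, at 7734, 7032 and 6263 against 1769, 338 and 451 (3.43 ± 0.55 SE, adjusted p = 0.00217). Cdkn1b and Cdkn1c, of the same family, were not called. The P3 libraries thus held proliferation, erythroid and endothelial transcripts together, and which cells carried the proliferation genes was not tested.

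Growth and ribosome assembly differed less than replication. Of 15 genes of ribosome biogenesis 5 were higher in P3, namely Ncl, Npm1, Fbl, Nop58 and Dkc1, and Myc was not called (log2 fold change 0.10 ± 0.25 SE). The share over all genes tested was 10.8%. The count was 8 without P3 replicate 1 and 2 without P3 replicate 2. After rescaling it was 11, a scaling under which 3571 of all 13414 genes tested were higher in P3.

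Members of the lists move together, and short sequence motifs in their promoters were counted as a description of what the lists share. The promoters are those of RefSeq (GRCm38.p6), 250 bases before to 50 after the start of a gene, with 1 promoter taken for each of 27025 genes, and both strands were searched. The letters TTTCCCGC, TTTGGCGC and TTTCGCGC, forms of the site of E2F factors, were in 1.91% of all promoters, in 3.46% of those of genes tested, in 1.47% of those of DEGs higher in P1 and in 7.51% of those of DEGs higher in P3. In the replication licensing list it was 8 of 14 promoters found. The letters TTTGAA, the cell cycle homology region (CHR) of mitotic genes, were in 18.1% of all promoters, in 11 of 16 of the mitotic list and in 11 of 14 of the kinetochore and spindle list, against 11.9% of genes tested, 8.97% of DEGs higher in P1 and 16.4% of DEGs higher in P3. The GATA letters AGATAA were in 11.4% of all promoters and in 10 of 23 of the erythroid list, against 6.36% of genes tested, 6.04% of DEGs higher in P1 and 8.17% of DEGs higher in P3. The RUNX letters TGTGGT were in 16.9% of all promoters and in 4 of 8 of the osteoblast list, but in 1 of 9 of the osteoblast transcription factors. They were in 10.2% of DEGs higher in P1, below the 12.2% of genes tested and the 13.8% of DEGs higher in P3, and in 4 of 14 of the licensing list. A match is no evidence of binding, and these motifs were chosen with the results known.

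The 160 bases before the start are shown for 6 genes that hold a match. They read 5′ to 3′ on the strand of the gene, with the matches in capitals. These are examples of holders, and other promoters of their lists hold no match. Bglap (chr3:88384467-88384626, minus strand) holds the RUNX letters in reverse, and Epor (chr9:21963577-21963736, minus strand) the GATA letters in reverse. Mcm5 (chr8:75109349-75109508, plus strand) and Mcm6 (chr1:128359706-128359865, minus strand) show the E2F letters, with 2 overlapping matches on opposite strands in Mcm5 and 3 matches in Mcm6, of which the first and second overlap in the same way. Mki67 (chr7:135716380-135716539, minus strand) and Top2a (chr11:99024190-99024349, minus strand) show the CHR letters, which lie in reverse in Top2a.
Bglap: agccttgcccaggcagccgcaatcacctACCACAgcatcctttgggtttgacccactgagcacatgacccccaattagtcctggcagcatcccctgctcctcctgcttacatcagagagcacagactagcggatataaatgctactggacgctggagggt
Epor: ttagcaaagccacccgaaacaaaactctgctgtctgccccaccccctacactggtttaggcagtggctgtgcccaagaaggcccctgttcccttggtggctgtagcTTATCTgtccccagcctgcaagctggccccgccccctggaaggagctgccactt
Mcm5: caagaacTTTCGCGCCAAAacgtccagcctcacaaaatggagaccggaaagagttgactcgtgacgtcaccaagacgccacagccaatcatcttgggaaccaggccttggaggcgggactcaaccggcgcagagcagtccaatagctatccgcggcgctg
Mcm6: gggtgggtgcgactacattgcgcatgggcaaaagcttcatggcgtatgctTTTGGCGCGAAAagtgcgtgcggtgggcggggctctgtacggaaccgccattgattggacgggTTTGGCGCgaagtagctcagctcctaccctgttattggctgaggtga
Mki67: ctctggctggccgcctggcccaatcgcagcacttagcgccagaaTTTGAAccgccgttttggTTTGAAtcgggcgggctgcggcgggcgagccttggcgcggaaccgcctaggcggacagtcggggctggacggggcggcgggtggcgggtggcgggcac
Top2a: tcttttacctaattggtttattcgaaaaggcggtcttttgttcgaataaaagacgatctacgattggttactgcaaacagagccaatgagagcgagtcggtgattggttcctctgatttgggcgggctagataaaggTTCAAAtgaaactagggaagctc

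CD105 is a coreceptor of TGF-β and BMP signals, and the other genes of that pathway leaned toward P1. Of 26 genes tested 11 were higher in P1 and Eng alone was higher in P3 (median 1.61). Among ligands, Bmp3 had the largest change, at 2615, 4841 and 3438 in P1 against 51.0, 29.9 and 41.6 in P3 (6.43 ± 0.35 SE, limma adjusted p = 4.7e-05), and Bmp2 and Tgfb3 were also called, whereas Tgfb1 stayed under the fold threshold (1.36) and Bmp4 was not called. The receptors Tgfbr1, Acvr1, Bmpr1a and Bmpr2 were higher in P1, but Tgfbr2 and Tgfbr3 were not called. Of the targets, Id3 was called at 12570, 13168 and 9122 in P1 against 2717, 886 and 1272 in P3 (2.98 ± 0.41 SE, adjusted p = 0.00108), and Id1 and Id2 were not. The count higher in P1 was 4 after rescaling, 7 without P1 replicate 3 or without P3 replicate 3, and 16 without P3 replicate 1. After rescaling 2 genes of the list were higher in P3. In the Wnt pathway, which drives bone formation, 6 of 16 genes were higher in P1: the receptors Lrp4 and Lrp5, the secreted inhibitors Dkk1, Wif1 and Notum, and the effector Tcf7. Wif1 was listed at 2598, 2531 and 3172 against 531, 49.8 and 259 (3.85 ± 0.72 SE, adjusted p = 0.00474), and Axin2, a general target of the pathway, was not called.

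Transcripts of other blood lineages were present in both groups despite the exclusion of CD45, and mostly overlapped. Most neutrophil granule genes overlapped. Of 16 granulocyte genes 4 did not, against 46.7% of all genes tested: Ltf and Camp lay higher in P1, Retnlg and Csf3r higher in P3. Ltf, at 3327, 5860 and 4917 in P1 against 1741, 2962 and 1270 in P3, passed the adjusted p but not the fold threshold (1.29 ± 0.36 SE, limma adjusted p = 0.0265). Camp missed the adjusted p (1.69 ± 0.56 SE, limma adjusted p = 0.0505). S100a8 had 5140, 8912 and 17709 in P1 and 9462, 9709 and 3029 in P3, and of 16 granulocyte genes Retnlg was the only DEG (-2.58 ± 0.42 SE, limma adjusted p = 0.00245). Elane, of early granulocytes, was listed at 0, 42.9 and 113 in P1 and at 2721, 9864 and 3.75 in P3, with P3 replicate 3 at the level of P1, and was not called (adjusted p = 0.214); without that library 5 of the 16 genes were higher in P3, and without P1 replicate 1, 3 were higher in P1. None of 10 megakaryocyte genes and none of 7 B lineage genes was called, although Cd79a reached 404 and 218 in P3 replicates 2 and 3 and 0.71 in replicate 1. Without P3 replicate 1, 2 of the B lineage genes were higher in P3, and without P1 replicate 3 it was 1. Of 9 blood progenitor genes Kit, Cd34, Myb and Gata2 were higher in P3. Kit (51.7, 24.8 and 173 against 230, 302 and 435; adjusted p = 0.0321) lost its call in 4 of the 6 fits that left out 1 library, and 2 of the 9 genes were called without P1 replicate 1, P3 replicate 2 or P3 replicate 3. Of 10 monocyte and macrophage genes Acp5 and Mrc1 were higher in P3; Mrc1, which sinusoidal endothelium also expresses, was listed at 0, 0 and 14.6 against 1254, 221 and 876, and Adgre1 and C1qa, which define macrophages, were below the filter.

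Mural, adipocyte, nerve and muscle genes were few. Cspg4 (NG2), a marker of pericytes that bone-forming cells can also express, was higher in P1 at 760, 2987 and 1159 against 22.3, 10.6 and 20.8 (6.26 ± 0.58 SE, limma adjusted p = 0.000236), while Mcam, listed at 0 in all P1 libraries and at 457, 107 and 274 in P3, and Kcnj8 were higher in P3. The smooth muscle genes Acta2, Tagln and Myh11 stayed at or below 59.7 in all 6 libraries. Without P3 replicate 1, 4 of the 8 mural genes were higher in P1, and 1 was higher in P3 without any one library other than P3 replicate 2. Fabp4, an adipocyte gene that capillary endothelium also expresses, was higher in P3 (14.6, 532 and 3.08 against 5078, 702 and 2827; adjusted p = 0.0188; not called in 3 of the fits that left out 1 library), and the adipocyte genes Plin1 and Cidec were listed at 0 in all 6 libraries. Adipoq, which marrow stroma shares with adipocytes, overlapped at 2000 to 6088 in P1 and 2015 to 7044 in P3. Without P1 replicate 3 both adipocyte genes tested, Fabp4 and Cd36, were higher in P3. Of 3 Schwann cell genes Mbp, which blood cells also express, was higher in P3 (-1.81; not called in 3 of the fits that left out 1 library), and Mylpf was the only myofibre gene tested, and was not called.

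Immediate early genes, which dissociation and sorting are known to induce, had summed levels of 36401 to 51364 in P1 and 12223 to 57423 in P3. Fos was listed at 17087, 13340 and 9546 in P1 and at 14128, 2132 and 3383 in P3, so that P3 replicate 1 stood with P1. Of 13 genes Ier3 was the only DEG, higher in P1, and it lost its call without P3 replicate 3, without any one of the P1 libraries, after rescaling, after quantile normalization and without the mean-variance trend of limma, whereas without P3 replicate 1 there were 9 higher in P1. The part of handling in the other results was not tested.

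The largest fold changes were named by a rule of size. Among DEGs with no overlap and a mean of at least 100 in the higher group, the 8 largest toward P1 were an entry listed as PCDHA9, Klhl30, Tnn, Tmem182, Sytl2, Bglap, Lipc and Car12. Klhl30 was listed at 471, 532 and 424 in P1 and at 0.71, 0 and 0 in P3 (8.63 ± 0.67 SE, limma adjusted p = 0.000118). Tnn, the matrix protein tenascin-N, had 501, 673 and 177 against 1.32, 0 and 0. PCDHA9, of the protocadherin α cluster, whose members share exons so that reads are hard to assign, had 621, 488 and 505 against 0 in all P3 libraries. The 8 largest toward P3 were Cela1, Cldn5, Sh3tc2, Emcn, Flt4, Aldh1a7, Ushbp1 and Gpihbp1. Cela1, a serine protease, was listed at 0 in all P1 libraries and at 481, 1522 and 1666 in P3, and Aldh1a7 at 0 against 325, 491 and 399. Cldn5, Emcn, Flt4 and Gpihbp1, the last a capillary protein that binds lipoprotein lipase, are endothelial genes, and for all of them P3 replicate 2 was the lowest P3 library.

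The change from P1 to P3 was then set against that in the other tissues, with a test of the difference itself for each gene. Between bone marrow and periosteum 93 of 14620 genes differed (0.636%), with 79 more toward P1 in bone marrow (0.54%) and 14 more toward P3 (0.0958%). Between bone marrow and muscle it was 2622 of 15179 genes (17.3%), with 1447 more toward P1 (9.53%) and 1175 more toward P3 (7.74%). With all 27 libraries in the fit the muscle count was 418, and the list counts against muscle given below are those of the fit of 12 libraries. The count for periosteum depended on single libraries: it was 6 without P1 replicate 1 of bone marrow, 7 without P1 replicate 2, 29 to 39 without P1 replicate 3, P3 replicate 2 or P3 replicate 3, and 310 without P3 replicate 1. Of 16 genes read in both tests, Cd200 differed from both tissues. It was the sorting marker of P1, yet in periosteum it was listed at 3972, 2614 and 2607 in P1 and at 5554, 4326 and 3700 in P3, and in muscle at 1025, 3274 and 2560 in P1 and at 8340, 6525 and 6947 in P3. Bone marrow was thus the one tissue of the 3 in which Cd200 mRNA was higher in P1, and the difference of log2 fold changes was 4.11 ± 0.45 (SE, limma adjusted p = 0.00231) from periosteum and 5.35 ± 0.54 (adjusted p = 0.000101) from muscle. Eng was lower in P1 in all 3 tissues, and its differences were not called.

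Bone genes separated P1 from P3 further in bone marrow than in muscle. Col1a1 in muscle was listed at 72212, 117997 and 105977 in P1 and at 53399, 59693 and 41318 in P3, a log2 fold change of 0.93, which differed from that of bone marrow by 5.74 ± 0.82 (SE, limma adjusted p = 0.000645). Sp7, Bglap and Ibsp differed in the same direction (by 3.67 for Sp7, 4.5 for Bglap and 2.27 for Ibsp). In all, the difference was called for 10 of the 12 osteoblast genes and 16 of the 21 matrix genes. All of these were more toward P1 in bone marrow, against 9.53% of all genes tested. In periosteum the osteoblast median was 2.52 against 4.95 in bone marrow. There 3 of the 12 genes were called as different, all more toward P1 in bone marrow, against 0.54% of all genes tested. Cxcl12, which did not separate the groups in bone marrow, was lower in P1 of muscle (3778, 2918 and 4145 against 13143, 11158 and 13038). Its log2 fold change in muscle was -1.80, and the difference of 2.07 ± 0.63 passed the test (limma adjusted p = 0.0365). Cxcl12 was lower in P1 of periosteum as well (5623, 4051 and 9103 against 14272, 38432 and 30393), with a log2 fold change of -2.11. The difference from periosteum, 2.38 ± 0.75, did not pass the test (limma adjusted p = 0.202). Lepr was called in none of the tissues.

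For proliferation bone marrow stood apart from muscle. Pcna was level in muscle, at 1037, 769 and 719 in P1 and 968, 760 and 744 in P3, and the difference of log2 fold changes was -3.90 ± 0.42 (SE, limma adjusted p = 0.000123). Mcm5 and Top2a differed as well (-3.63 and -2.94), while Mki67 missed the threshold (-2.87 ± 1.0, adjusted p = 0.0624). Of the licensing list 16 of 19 genes were called as different from muscle, and of the mitotic list 16 of 19. All of these were more toward P3 in bone marrow, against 7.74% of all genes tested. In periosteum the medians of these lists were -2.77 and -3.22, with 1 licensing gene and no mitotic gene called as different. The licensing gene was more toward P3 in bone marrow, against 0.0958% of all genes tested. The erythroid genes Gata1 and Klf1 were higher in P3 of bone marrow (Gata1 2022 to 4644) and far lower in P3 of muscle (26.2 to 42.5), but the fold changes of these 2 genes were not called as different. Over the whole erythroid list 11 of 33 genes were called as different from muscle, all more toward P3 in bone marrow, and so were 6 of 18 endothelial genes, against 7.74% of all genes tested. In periosteum 2 of the 33 erythroid genes were called, both less toward P3 in bone marrow, against 0.54% of all genes tested. None of 17 endothelial genes was called there. Within the other tissues these lists were also higher in P3. In muscle 13 of 33 erythroid and 14 of 18 endothelial genes were higher in P3, against 445 of all 15179 genes tested. In periosteum it was 21 of 33 and 13 of 17, against 360 of 14620, with medians of -4.63 and -7.84. Gata1 was near the floor in P1 of muscle (0 to 1.13), where the scale understates a change. The differences of Kit and Elane were not called, and Elane was listed at 0 in 11 of the 12 periosteum and muscle libraries.

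**Figure D4:**
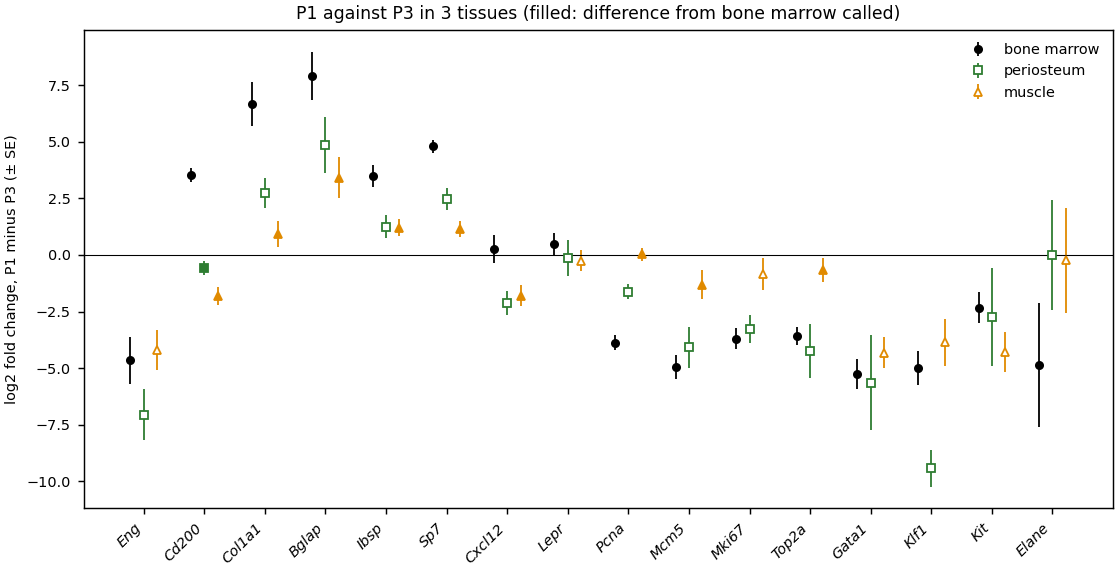
Log2 fold change of P1 against P3 (vertical axis, ± SE) of 16 genes in bone marrow (circles; SE from the 6 libraries), periosteum (squares) and muscle (triangles; SE from fits of 12 libraries), with 3 libraries per group; filled squares and triangles mark a called difference from bone marrow. Cd200 is above 0 in bone marrow alone, Col1a1 and Sp7 lie highest in bone marrow, and Pcna lies near 0 in muscle and at -3.88 in bone marrow.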

How the data were processed

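RNA of tdTomato+ CD45- cells was amplified with the SMART-Seq v4 kit, and the authors trimmed the reads (Trim Galore), mapped them by STAR and normalized their counts in DESeq2. The genome build, annotation and counting tool are not given in the sources used here. The deposited table holds normalized counts (a signal, with no raw counts). Whole reads could not be recovered from it, so the depth in reads is unknown and no counting interval is given. Of 30154 entries, 13414 had at least 10 in at least 3 of the 6 libraries and were tested on log2(normalized count + 1) with limma 3.58.1 (R 4.3.3; empirical Bayes with a trend), 6 libraries in the fit, with Benjamini-Hochberg adjustment. The thresholds of 0.05 and 1.5 are those of the study. The differences between tissues were fitted over 12 libraries. Coordinates are of GENCODE M21 (GRCm38), in which 29732 identifiers were found. Ahsp and Xist were not analysed here. Some members of the lists are not reported here by name.

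The members, lists and tests were chosen with earlier results of these data known. The genes named were a set of sort, stroma, bone and proliferation markers, up to 4 members of each list with the highest mean, the 8 DEGs of largest fold change toward P1 and the 8 toward P3 whose libraries did not overlap and whose higher group had a mean of at least 100, and the genes tested between tissues. Other list members were named after their values were seen. In simulated data, 119 of 200 genes changed by 3 on the log2 scale were recovered, all in the right direction, and 11 of the other genes were called. The pseudocount, filter, scaling, libraries in the fit, thresholds and a replicate block were varied, and each library was left out in turn. Same-numbered P1 and P3 libraries did not deviate together (r = 0.0915, 0.0435 and -0.0766 across genes), which cannot settle whether they came from the same animal. The numbers were not taken as pairs because which animal gave which library is not stated.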

Additional observations from a re-analysis of the deposited data

Results flagged for a closer look

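The change from P1 to P3 differed between bone marrow and another tissue, by a test of the difference itself, for 93 genes against periosteum and 2622 genes against muscle (limma, adjusted p below the threshold). Among the 16 genes read one by one, the log2 fold change of Cd200 was higher in bone marrow than in periosteum by 4.11 and than in muscle by 5.35. Against muscle it was also higher for Col1a1 (by 5.74), Bglap (4.5), Sp7 (3.67), Ibsp (2.27) and Cxcl12 (2.07). It was lower for Pcna (-3.90), Mcm5 (-3.63) and Top2a (-2.94). Groups of 3 libraries were not tested for single outlying libraries.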

How the results depend on the processing

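The DEGs numbered 3125, of which 1676 were higher in P1 and 1449 in P3. With all 27 libraries in the fit they fell to 1361 (717 and 644), and at an adjusted p below 0.01 there were 2012, with 1043 higher in P1. After rescaling to 1 total, 752 were higher in P1 and 3571 in P3, and the median over all genes moved from 0.06 to -0.90 (log2); with no filter it was -0.16. The periosteum count of 93 became 160 after quantile normalization and 6 to 310 when 1 library was left out, and the muscle count of 2622 became 418 with 27 libraries. The cause of these shifts was not tested. With the replicate number as a block, 1654 genes were higher in P1 and 1421 in P3, and the periosteum count was 5. Whether equal numbers stand for the same animal is not stated, and the check of deviations cannot settle it. Of 143 named genes tested, 103 changed call under no alternative, 18 lost a call under at least one, 22 gained one, and none reversed. Of 64 list counts 39 stayed within 1.5 times under every alternative. The limit here is 3 libraries a group, with no depth in reads.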

Other observations

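Homeobox genes of the Hox clusters, which hold a record of position along the body, were examined after their values were seen. Hoxb2 was listed at 434, 1196 and 856 in P1 and at 56.5, 4.20 and 40.1 in P3, and was higher in P1 (log2 fold change 5.05 ± 0.88 SE, limma adjusted p = 0.00341). Hoxb7, of the same cluster, was higher in P3, at 1.55, 3.23 and 0 against 39.6, 29.5 and 36.6 (-4.03 ± 0.89 SE, adjusted p = 0.00982). Hoxc10 (3.58), Hoxc5 (3.23) and Hoxa10 (2.04) were also higher in P1, and the remaining Hox genes tested were not called.

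Of 81 cytosolic ribosomal protein genes tested, 2 were higher in P1 and 1 in P3, against 12.5% and 10.8% of all genes tested. Their median log2 fold change was -0.79, against 0.06 over all genes tested. It was -1.76 after rescaling, against -0.90 over all genes, and -1.03 after quantile normalization, against -0.01. None of the 13 protein-coding genes of the mitochondrial genome was called (median -0.19, and -1.17 after rescaling).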
